A study of Mus musculus with 6 samples.

Results

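The 44 genes described here encode the machinery that copies DNA and the enzymes that supply its nucleotides. They were taken by symbol from a table of 22105 genes with Ensembl identifiers, and all 44 were found. By role, 9 belong to origin licensing, 12 to the replicative helicase, 9 to the polymerases, 6 to the sliding clamp and its loader, 3 to replication protein A (RPA) and 5 to nucleotide supply. The measurements are RNA sequencing of RAW264.7, an established mouse macrophage-like cell line that divides continuously in culture. The control group was 3 libraries of cells given phosphate buffered saline (PBS). The other group was 3 libraries of cells given CM-PEG-PLGA@DOX/R848, a nanoparticle dosed to carry 2 µg/mL of DOX or its equivalent, and in both groups treatment lasted 24 h. Doxorubicin (DOX) poisons topoisomerase II, and resiquimod (R848) activates Toll-like receptors. PLGA and PEG are polymers, and CM is not spelled out in the labels. No library received a single component, so the effects of DOX, R848 and the carrier cannot be told apart. Nothing in the labels says that replicates were separate cultures, so the p-values reflect only how these samples vary, which may be technical variation.

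In G1 phase the origin recognition complex, with Cdc6 and Cdt1, loads the ring-shaped Mcm2 to Mcm7 helicase onto DNA. In S phase Cdc45 and the GINS complex join the ring and turn it into an active helicase, polymerase alpha with primase lays down primers, and polymerases epsilon and delta extend them. The clamp PCNA, loaded by replication factor C, tethers polymerases to DNA, RPA coats single strands, and ribonucleotide reductase, thymidine kinase, thymidylate synthase and dUTPase set the supply of deoxynucleotides. Transcription factors of the E2F family are textbook activators of many of these genes as cells enter S phase.

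The libraries listed 12678 to 15989 genes above 0 FPKM (fragments scaled by transcript length and library size), with fewer in the PBS libraries. The depth of each library is unknown, so no counting error can be given for a value. Of 12 macrophage markers, 1 stayed below 1 FPKM in every library. Their summed level was 3764 to 3926 FPKM in PBS and 1651 to 1780 FPKM in nanoparticle libraries. All 5 tabulated markers each of T cells, B cells, epithelial cells, fibroblasts and neutrophils were below 1 FPKM in every library.

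Most replication genes were lower after the particles, and several complexes held genes that moved in opposite directions. Of the 44 genes, 29 fell, 5 rose and 10 did not pass the test (limma on log2(FPKM + 1), Benjamini-Hochberg adjusted p under 0.05 over 10229 genes). Over all genes tested, 77.2% were called in either direction, 34.5% lower and 42.7% higher, so 29 of 44, or 65.9%, stands beside 34.5%. A fall of at least 1 on the log2 scale was seen in 10 of the 44 members, against 6.29% of all genes tested. No member rose by that much, against 11.4% of all genes tested. The median log2 fold change was -0.56 for the 44 members and 0.08 for all genes tested. Groups did not overlap at 34 of the 44, or 77.3%, close to the 78.8% of all genes tested. Summed over the 44 genes, the level was 2700, 2745 and 2682 FPKM in PBS replicates 1 to 3 against 1726, 1729 and 1738 FPKM in nanoparticle replicates 1 to 3. That was 0.589% of all FPKM in each PBS library and 0.370% to 0.387% in nanoparticle libraries. In bulk RNA, fewer cells in S phase and less RNA per cell cannot be told apart.

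**Figure D1:**
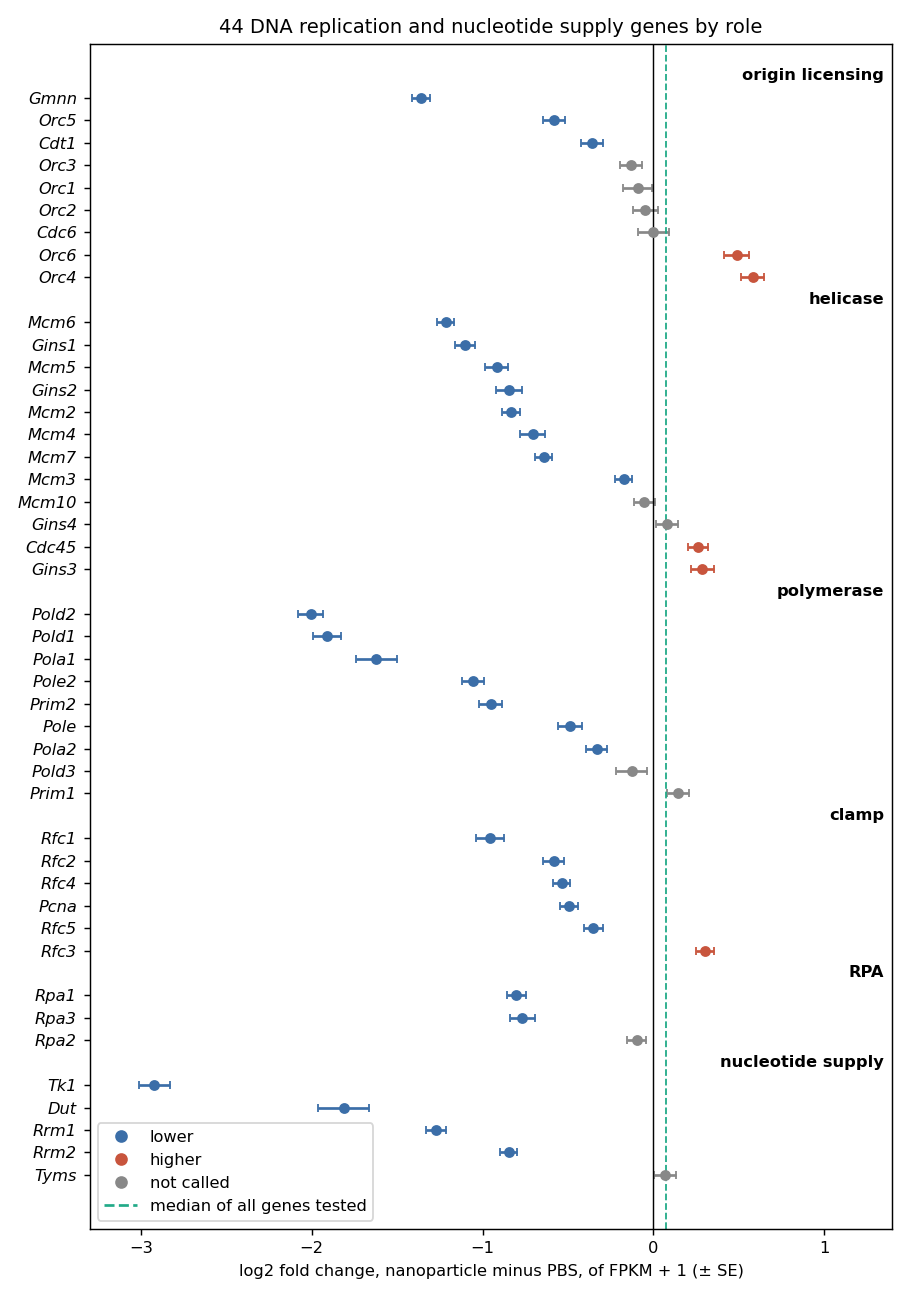
Log2 fold change of each of the 44 genes (x axis, nanoparticle minus PBS, on the log2(FPKM + 1) scale, bars ± SE) grouped by role (y axis), with the median of all genes tested as a dashed line. Polymerase and nucleotide supply genes hold the largest falls, and the 5 genes that rose are Orc4, Orc6, Cdc45, Gins3 and Rfc3.

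Promoter sequence is shown because E2F is a textbook activator of many of these genes. Whether E2F had a part in the changes was not tested. RefSeq promoters of 250 bases before and 50 after the start (GRCm38.p6) were matched by symbol for 36 of the 44 genes. The 7-base E2F core was searched on both strands in 4 forms, with TTCGCGC as the first, TTGGCGC as the second, TTCCCGC as the third and TTGCCGC as the fourth, and matches can overlap each other. It was found for 22 of the 36 members (61.1%), for 20.7% of the 8104 tested genes with a promoter in the table, and in 9.57% of all 32851 promoters. By direction, 13 of 22 matched genes that fell held it, as did 3 of 5 that rose and 6 of 9 that did not pass. The sequence CCAAT, likewise on both strands, was found for 23 of the 36 members (63.9%), for 43.98% of the tested genes and in 37.4% of all promoters. TTTGAA, a form of the cell cycle genes homology region, was found for 4 members (11.1%), for 14.7% of the tested genes and in 17.9% of all promoters. A match is only a run of letters and shows no binding.

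The 150 bases directly before the RefSeq start are shown for a pair of genes that fell (Mcm6 and Rrm1), a pair that rose (Gins3 and Rfc3) and a pair that did not pass (Orc1 and Prim1), 5′ to 3′ on the gene's strand, with E2F core matches in capitals. The stretches are chr1:128359706-128359855 (minus strand), chr7:102441545-102441694 (plus), chr8:95633409-95633558 (plus), chr5:151651209-151651358 (minus), chr4:108579304-108579453 (plus) and chr10:128015065-128015214 (plus), in that order.
Mcm6: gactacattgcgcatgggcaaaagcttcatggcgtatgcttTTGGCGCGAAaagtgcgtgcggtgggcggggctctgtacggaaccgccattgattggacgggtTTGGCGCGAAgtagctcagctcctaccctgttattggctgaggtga
Rrm1: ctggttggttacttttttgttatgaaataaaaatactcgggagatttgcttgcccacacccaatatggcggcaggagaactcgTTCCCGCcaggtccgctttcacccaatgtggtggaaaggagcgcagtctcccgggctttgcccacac
Gins3: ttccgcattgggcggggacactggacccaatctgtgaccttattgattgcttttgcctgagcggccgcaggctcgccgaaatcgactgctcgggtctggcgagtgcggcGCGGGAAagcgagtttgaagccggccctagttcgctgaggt
Rfc3: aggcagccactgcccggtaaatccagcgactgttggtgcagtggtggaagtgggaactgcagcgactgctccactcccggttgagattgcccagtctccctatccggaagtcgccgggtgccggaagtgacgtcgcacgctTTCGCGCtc
Orc1: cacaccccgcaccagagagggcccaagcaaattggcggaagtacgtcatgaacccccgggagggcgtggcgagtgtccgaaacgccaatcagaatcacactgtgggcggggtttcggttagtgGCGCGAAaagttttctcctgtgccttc
Prim1: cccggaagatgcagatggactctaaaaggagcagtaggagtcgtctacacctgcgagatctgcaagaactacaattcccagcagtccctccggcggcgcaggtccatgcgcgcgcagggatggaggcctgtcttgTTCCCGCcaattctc
In Mcm6 the core occurs on both strands of 2 stretches, 4 matches in all, whereas each of the other 5 stretches shown holds 1 match. All stretches shown thus hold a match, which was not so for every member. Among the largest falls, Tk1, Pold2 and Dut held none in the bases searched, whereas Pold1 and Pola1 did. Apart from Rrm1, the RefSeq starts of the genes shown differ from the outermost starts in GENCODE, the source of the gene coordinates given here. Against GENCODE, 106 of the 150 bases shown lie inside the gene for Gins3, 47 for Prim1, 34 for Rfc3 and 31 for Orc1, and in each of these 4 the E2F match lies inside the gene. The Mcm6 stretch ends 41 bases before the GENCODE gene, and the Rrm1 stretch ends directly before it.

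Origin licensing genes were mixed, with 3 lower, 2 higher and 4 not passing among 9, and a median log2 fold change of -0.09. The 33.3% lower was close to the 34.5% of all genes tested, of which 42.7% were higher. The largest difference was in Gmnn (chromosome 13, 24751845 to 24761923, GRCm38), which encodes geminin, the inhibitor that binds Cdt1 and blocks a second round of licensing. Gmnn stood at 93.0, 96.3 and 92.5 FPKM in PBS replicates 1 to 3 against 36.0, 34.8 and 37.2 FPKM in nanoparticle replicates 1 to 3. It fell 2.61-fold, and the groups were far apart (limma adjusted p = 1.1e-08, log2 fold change -1.36 ± 0.05 SE). Cdt1, the loader that geminin restrains, was at 61.6, 56.8 and 54.2 FPKM with PBS against 45.6, 45.8 and 42.3 FPKM with the particles. It fell by less, to 77.5% of its PBS level (limma adjusted p = 5.2e-04, log2 fold change -0.36 ± 0.06 SE). The ratio of Cdt1 to Gmnn FPKM was therefore 0.662, 0.590 and 0.586 in PBS and 1.26, 1.32 and 1.14 in nanoparticle libraries, higher in every treated library than in any control. This ratio compares transcripts, and neither protein was measured.

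Cdc6, the partner of Cdt1 in helicase loading, did not differ by more than the replicate spread. Its level was 15.3, 14.4 and 17.8 FPKM with PBS against 17.4, 14.8 and 15.3 FPKM with the particles, with overlapping groups (limma adjusted p = 1.0, log2 fold change 0.00 ± 0.09 SE). Within the origin recognition complex, Orc4 and Orc6 rose, Orc5 fell, and Orc1, Orc2 and Orc3 did not pass. Orc4 (chromosome 2, 48902824 to 48950277) was at 9.62, 10.1 and 10.9 FPKM with PBS against 15.7, 15.8 and 15.8 FPKM with the particles, the largest rise of the 44 (limma adjusted p = 2.3e-05, log2 fold change 0.58 ± 0.07 SE). Orc6 (chromosome 8, 85299632 to 85308278) was at 44.6, 48.1 and 47.5 FPKM with PBS against 59.9, 66.3 and 71.9 FPKM with the particles (limma adjusted p = 1.4e-04, log2 fold change 0.49 ± 0.07 SE). Every treated library lay above every control for both genes.

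Orc5 went the other way, from 23.4, 23.5 and 25.3 FPKM in PBS to 14.9, 15.9 and 16.4 FPKM in nanoparticle libraries (limma adjusted p = 1.7e-05, log2 fold change -0.58 ± 0.06 SE). Orc1, the subunit whose level is known to change through the cell cycle, had 9.55, 9.07 and 8.78 FPKM with PBS against 7.70, 8.33 and 9.62 FPKM with the particles. Orc2 had 29.4, 28.3 and 30.4 FPKM with PBS against 26.6, 27.3 and 31.5 FPKM with the particles. In both genes nanoparticle replicate 3 lay above replicates 1 and 2 and the groups overlapped. Orc3 had 31.7, 30.3 and 32.8 FPKM with PBS against 27.1, 28.3 and 31.1 FPKM with the particles (log2 fold change -0.13, limma adjusted p = 0.096), and the groups overlapped. Orc3 was called lower when the replicate number was added as a block (limma adjusted p = 0.039), and also without nanoparticle replicate 3 (log2 fold change -0.18, limma adjusted p = 0.018). Over all 15 alternatives its adjusted p ran from 7.2e-03 to 0.26.

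All 6 genes of the Mcm2 to Mcm7 ring fell, by unequal amounts, where 34.5% of all genes tested were lower. Their summed level was 664, 659.7 and 642 FPKM with PBS against 403, 395 and 392 FPKM with the particles, so 60.5% remained. Mcm6 (chromosome 1, 128331590 to 128359664) changed most, from 119, 126 and 123 FPKM in PBS to 50.7, 53.4 and 52.6 FPKM in nanoparticle libraries (limma adjusted p = 2.1e-08, log2 fold change -1.22 ± 0.05 SE). Mcm5 was at 168, 161 and 152 FPKM with PBS against 91.1, 84.0 and 78.3 FPKM with the particles (log2 fold change -0.92). With PBS, Mcm5 lay above Mcm3 and Mcm6 below it in every library, and in every treated library both lay below Mcm3. Mcm2 went from 95.8, 93.2 and 88.6 FPKM to 52.7, 51.3 and 50.3 FPKM (log2 fold change -0.83). Mcm4 went from 57.9, 59.3 and 64.5 FPKM to 34.7, 35.2 and 40.5 FPKM (log2 fold change -0.71), and Mcm7 from 92.3, 92.4 and 87.4 FPKM to 58.0, 58.4 and 56.9 FPKM (log2 fold change -0.64).

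Mcm3 was the exception in size. It stood at 131, 128 and 127 FPKM with PBS against 116, 113 and 113 FPKM with the particles, so 88.5% of the PBS level remained (limma adjusted p = 7.4e-03, log2 fold change -0.17 ± 0.05 SE). The proteins form a ring with 1 copy of each, yet the transcripts were not at equal levels in either group. Mcm4 was the lowest of the 6 in every library. The highest was Mcm5 in all 3 PBS libraries and Mcm3 in all 3 nanoparticle libraries. The ratio of lowest to highest was 0.344, 0.369 and 0.425 in PBS and 0.300, 0.311 and 0.357 in nanoparticle libraries, and the groups overlapped.

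Of the factors that activate the ring, Gins1 and Gins2 fell, Cdc45 and Gins3 rose, and Mcm10 and Gins4 did not pass. Cdc45 went from 39.8, 42.6 and 43.4 FPKM in PBS to 49.97, 52.6 and 48.7 FPKM in nanoparticle libraries (limma adjusted p = 2.3e-03, log2 fold change 0.26 ± 0.06 SE). Mcm10, which acts when the helicase is switched on, had 24.7, 24.6 and 25.5 FPKM with PBS against 24.4, 22.7 and 25.0 FPKM with the particles, with overlapping groups (log2 fold change -0.05, limma adjusted p = 0.44). Mcm10 was called lower under upper quartile scaling alone (log2 fold change -0.15, limma adjusted p = 0.032; 0.032 to 0.89 over the alternatives).

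The 4 GINS subunits, which work as a single complex, divided. Gins1 fell from 40.9, 44.3 and 40.9 FPKM to 18.9, 19.6 and 18.6 FPKM (limma adjusted p = 9.6e-08, log2 fold change -1.10 ± 0.06 SE). Gins2 fell from 15.9 ± 1.01 to 8.40 ± 0.634 FPKM (SD, n = 3; log2 fold change -0.84). Gins2 shares 67.3% of its exonic bases with Gse1 on the opposite strand, which itself fell from 4.49 to 2.34 FPKM. Gins3 rose, from 17.6, 18.9 and 19.4 FPKM to 21.6, 22.9 and 24.3 FPKM (limma adjusted p = 3.0e-03, log2 fold change 0.29 ± 0.07 SE). Gins4 had 37.7, 41.2 and 39.6 FPKM with PBS against 39.2, 43.8 and 42.6 FPKM with the particles, and the groups overlapped (log2 fold change 0.08, limma adjusted p = 0.26). Gins1 was thus the most abundant GINS transcript in every PBS library and Gins4 in every nanoparticle library. The lowest to highest ratio across the 4 subunits was 0.405, 0.370 and 0.360 in PBS and 0.230, 0.192 and 0.182 in nanoparticle libraries, without overlap.

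**Figure D2:**
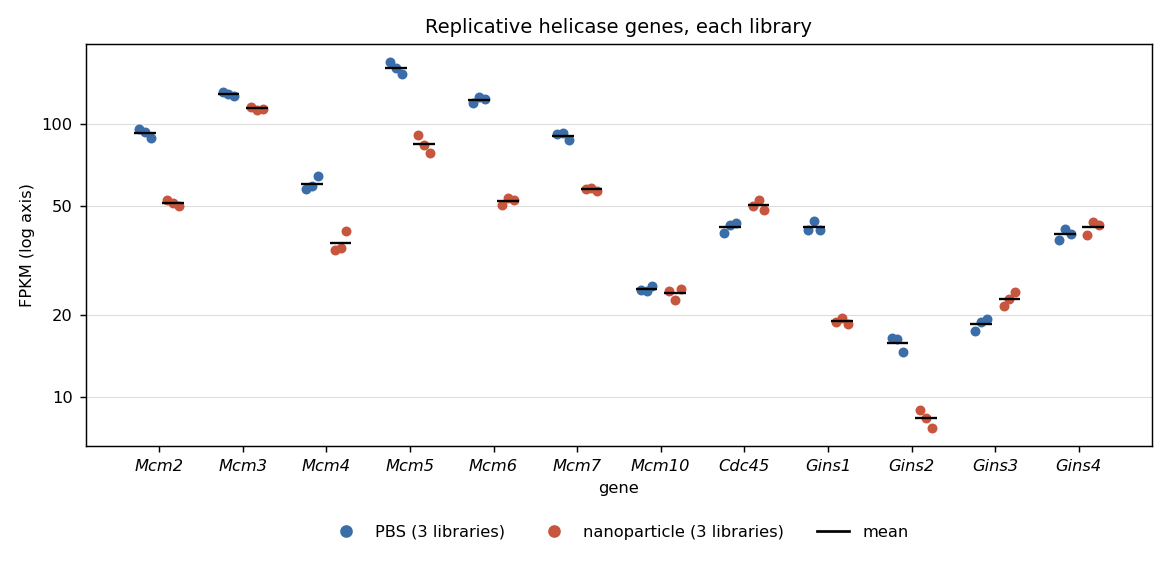
FPKM of the 12 helicase genes in each library (y axis, log scale; x axis, gene), with PBS libraries in blue, nanoparticle libraries in red and the group mean as a bar. The 6 ring genes lie lower in every treated library, while Cdc45 and Gins3 lie higher.

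Polymerase genes held some of the largest falls: 7 of 9 were lower, none was higher, and the median log2 fold change was -0.95. The share lower was 77.8%, against 34.5% of all genes tested. Polymerase delta copies the lagging strand, and its catalytic subunit gene Pold1 and accessory subunit gene Pold2 fell about alike. Pold1 (chromosome 7, 44532746 to 44548849) went from 52.0, 44.9 and 45.0 FPKM to 13.1, 11.3 and 11.2 FPKM (limma adjusted p = 2.4e-08, log2 fold change -1.91 ± 0.08 SE). Pold2 (chromosome 11, 5872180 to 5878292) went from 57.7, 58.7 and 51.0 FPKM to 14.1, 13.004 and 12.3 FPKM (limma adjusted p = 8.1e-09, log2 fold change -2.01 ± 0.07 SE). Pold1 kept 25.1% and Pold2 23.5% of the PBS level. The third subunit, Pold3, did not pass, with 16.6, 15.997 and 18.0 FPKM with PBS against 13.4, 15.7 and 17.2 FPKM with the particles (log2 fold change -0.13, limma adjusted p = 0.23) and overlapping groups. The call of Pold3 turned on nanoparticle replicate 3, without which it was lower (log2 fold change -0.20, limma adjusted p = 0.045). It was also called lower under upper quartile scaling (log2 fold change -0.23, limma adjusted p = 0.038), and over the alternatives its adjusted p ran from 0.038 to 0.70. In PBS Pold3 was less abundant than Pold1, and after the particles it was more abundant.

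Polymerase alpha and primase form 1 complex of 4 subunits that starts each new strand. The catalytic subunit gene Pola1 (chromosome X, 93304767 to 93632155), the longest of the 44 genes at 327 kb, fell from 10.6, 10.1 and 11.6 FPKM to 2.29, 2.65 and 3.62 FPKM (limma adjusted p = 1.0e-06, log2 fold change -1.62 ± 0.12 SE). Its accessory subunit gene Pola2 fell from 47.0 ± 2.17 to 37.2 ± 1.61 FPKM (SD, n = 3), a much smaller change (log2 fold change -0.33). The ratio of Pola2 to Pola1 was 4.67, 4.56 and 3.94 in PBS and 16.8, 14.2 and 9.78 in nanoparticle libraries. In the primase pair it was the regulatory gene that fell. Prim2, the regulatory subunit, fell from 32.9 ± 1.04 to 16.5 ± 1.23 FPKM (log2 fold change -0.95). Prim1, the catalytic subunit that makes the RNA primer, had 37.4, 37.7 and 40.2 FPKM with PBS against 39.8, 42.0 and 46.1 FPKM with the particles (log2 fold change 0.14, limma adjusted p = 0.072), and the groups overlapped. Prim1 was called higher with the replicate block (limma adjusted p = 0.018) and without nanoparticle replicate 1 (log2 fold change 0.19, limma adjusted p = 0.024), with a range of 0.018 to 0.58 over the alternatives. The Prim1 to Prim2 ratio was 1.17, 1.16 and 1.18 in PBS and 2.62, 2.39 and 2.73 in nanoparticle libraries.

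Polymerase epsilon copies the leading strand. Its catalytic subunit gene Pole fell from 14.4 ± 1.00 to 9.94 ± 0.308 FPKM (log2 fold change -0.49) and its second subunit gene Pole2 from 20.9 ± 0.979 to 9.50 ± 0.168 FPKM (log2 fold change -1.06). As in primase, and unlike polymerase alpha, the accessory gene fell more than the catalytic one, so the Pole2 to Pole ratio went from 1.36, 1.64 and 1.37 in PBS to 0.948, 0.975 and 0.946 in nanoparticle libraries.

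**Figure D3:**
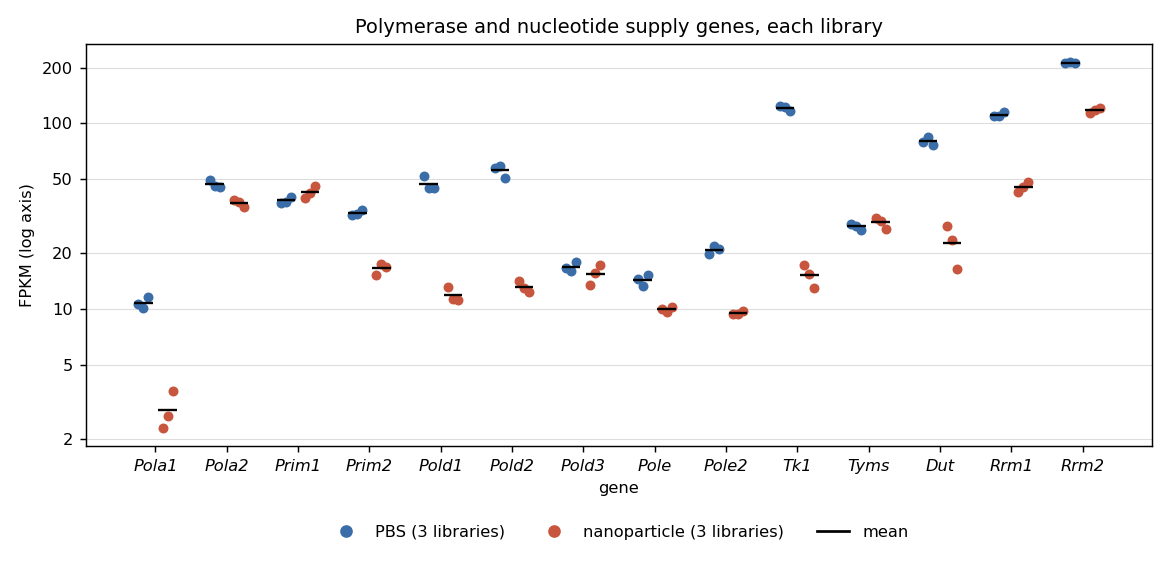
FPKM of the 9 polymerase genes and 5 nucleotide supply genes in each library (y axis, log scale; x axis, gene), with PBS in blue, nanoparticle in red and the group mean as a bar. Pola1, Pold1, Pold2, Tk1 and Dut drop furthest, while Prim1, Pold3 and Tyms overlap between groups.

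Of the clamp and clamp loader genes, 5 of 6 fell (83.3%, against 34.5% of all genes tested) and 1 rose. The groups overlapped at none of the 6, where 78.8% of all genes tested did not overlap. Pcna, the sliding clamp, was the most abundant of the 44 genes in PBS, at 324, 352 and 337 FPKM, against 237, 239.9 and 241 FPKM in nanoparticle libraries (limma adjusted p = 1.4e-05, log2 fold change -0.49 ± 0.05 SE). It kept 70.9% of its PBS level. Rfc1, the large subunit of the clamp loader, fell most, from 27.6, 26.6 and 29.8 FPKM to 12.9, 13.4 and 15.6 FPKM (limma adjusted p = 2.7e-06, log2 fold change -0.96 ± 0.08 SE). Rfc2, a small loader subunit, went from 35.5, 36.3 and 33.6 FPKM to 24.4, 23.1 and 21.8 FPKM (log2 fold change -0.58). Rfc4 fell from 69.1 ± 1.29 to 47.3 ± 0.859 FPKM and Rfc5 from 37.2 ± 1.46 to 28.9 ± 0.573 FPKM. The small subunit gene Rfc3 went against the others and rose, from 34.2, 35.9 and 35.7 FPKM to 43.0, 43.9 and 44.4 FPKM (limma adjusted p = 4.1e-04, log2 fold change 0.30 ± 0.05 SE). The loader holds all 5 Rfc proteins, and the transcripts for them changed by unequal amounts. The proteins were not measured.

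RPA, the single-strand binding trimer, had 2 genes lower and 1 that did not pass, where 34.5% of all genes tested were lower. Rpa1, the large DNA-binding subunit, was at 55.9, 57.1 and 54.6 FPKM with PBS against 30.6, 31.4 and 33.0 FPKM with the particles (limma adjusted p = 5.5e-07, log2 fold change -0.80 ± 0.05 SE). Rpa3, the smallest subunit, went from 50.8, 58.0 and 52.2 FPKM to 33.8, 29.6 and 30.0 FPKM (limma adjusted p = 5.9e-06, log2 fold change -0.77 ± 0.07 SE). Both groups were well apart for these genes. Rpa2, the subunit phosphorylated on replication stress, had 63.7, 65.8 and 62.3 FPKM with PBS against 63.4, 57.7 and 58.0 FPKM with the particles (log2 fold change -0.10, limma adjusted p = 0.14). Nanoparticle replicate 1 lay among the controls, and without it Rpa2 was called lower (log2 fold change -0.14, limma adjusted p = 0.038), as it was under median-ratio (limma adjusted p = 0.026) and upper quartile scaling (limma adjusted p = 0.012). The highest adjusted p among the alternatives was 0.36.

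Nucleotide supply had 4 of 5 genes lower (80%, against 34.5% of all genes tested) and the largest single change of the 44. Tk1 (chromosome 11, 117815526 to 117826092), the cytosolic thymidine kinase that salvages thymidine in dividing cells, was at 123, 122 and 116 FPKM with PBS against 17.2, 15.3 and 12.9 FPKM with the particles. It kept 12.6% of its PBS level (limma adjusted p = 2.7e-09, log2 fold change -2.92 ± 0.09 SE). Dut (chromosome 2, 125247190 to 125258608), dUTPase, which keeps uracil out of DNA and makes the substrate of thymidylate synthase, went from 79.6, 84.7 and 76.6 FPKM to 27.9, 23.5 and 16.4 FPKM. Dut had the largest standard error of the 44 (limma adjusted p = 2.3e-06, log2 fold change -1.81 ± 0.15 SE), and its nanoparticle libraries spread widely while staying far below the controls.

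Rrm1 and Rrm2 are the large and small subunits of ribonucleotide reductase, which makes deoxynucleotides from ribonucleotides. Rrm1 (chromosome 7, 102441695 to 102469771) went from 109.2, 109.8 and 115 FPKM to 42.6, 45.4 and 48.6 FPKM (limma adjusted p = 4.5e-08, log2 fold change -1.27 ± 0.06 SE). Rrm2 went from 212, 214 and 211 FPKM to 114, 118 and 120.3 FPKM (limma adjusted p = 1.7e-07, log2 fold change -0.85 ± 0.05 SE). The ratio of Rrm2 to Rrm1 was 1.94, 1.94 and 1.84 in PBS and 2.69, 2.60 and 2.48 in nanoparticle libraries. Tyms, thymidylate synthase, which makes thymidylate without salvage, did not pass, with 28.6, 28.2 and 26.7 FPKM with PBS against 31.0, 29.8 and 26.9 FPKM with the particles (log2 fold change 0.07, limma adjusted p = 0.37), and the groups overlapped. The ratio of Tk1 to Tyms FPKM was 4.31, 4.35 and 4.36 in PBS and 0.555, 0.515 and 0.480 in nanoparticle libraries, an 8.40-fold drop. It compares transcript levels only, and the activity of salvage or of new synthesis was not measured.

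In 7 of the 8 ratios between partner genes the groups did not overlap, the exception being the lowest to highest ratio of Mcm2 to Mcm7. For single genes, 78.8% of all tested did not overlap, and the share over other gene pairs was not taken. With 3 libraries against 3, an exact two-sided permutation test gives p = 0.10 at the least, which these 7 reached (0.11 after Benjamini-Hochberg adjustment over 8 ratios), so none can pass 0.05 in this design. The Mcm ratio gave an exact permutation p = 0.20. Ratios within a library do not depend on how libraries were scaled to each other.

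**Figure D4:**
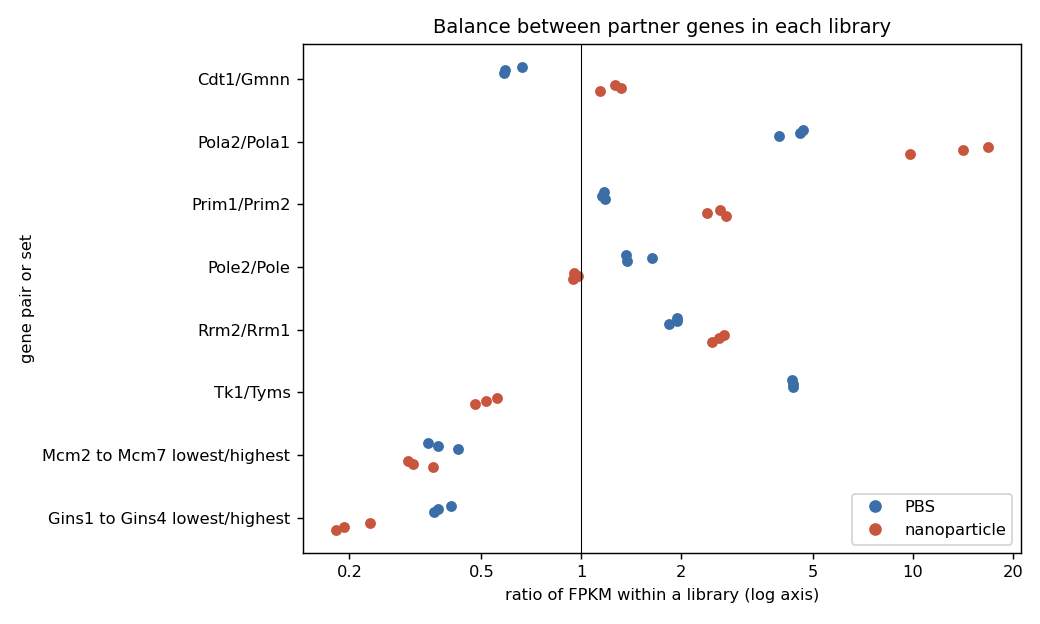
Ratio of FPKM between partner genes within each library (x axis, log scale; y axis, gene pair, or lowest over highest gene of a complex), PBS in blue and nanoparticle in red, 3 libraries each. Cdt1/Gmnn lies higher, and Pole2/Pole and Tk1/Tyms lie lower, in the nanoparticle libraries, and the Mcm2 to Mcm7 points are those that overlap.

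Other genes of replication and nucleotide supply, listed by role, were lower more often than higher. Of 75 tested in 4 lists, 49 fell (65.3%, against 34.5% of all genes tested), 12 rose (against 42.7%) and 14 did not pass, with a median log2 fold change of -0.40. Among fork and origin factors 13 of 21 fell (61.9%, against 34.5% of all genes tested) and 5 rose. Wdhd1, which links the helicase to polymerase alpha, fell from 17.5 ± 1.06 to 7.15 ± 0.378 FPKM (SD, n = 3), and Topbp1, which helps load Cdc45 and GINS, from 38.3 ± 2.72 to 20.1 ± 2.53 FPKM. Donson, a partner in that loading, rose from 14.9 ± 0.900 to 37.1 ± 1.85 FPKM (log2 fold change 1.26, limma adjusted p = 9.5e-08). Pole4, a small histone-fold subunit of polymerase epsilon, rose from 28.5 ± 1.76 to 59.5 ± 4.67 FPKM (log2 fold change 1.03, limma adjusted p = 6.5e-07), opposite to Pole and Pole2.

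Among genes of Okazaki fragment processing and clamp handling 6 of 11 fell (54.5%, against 34.5% of all genes tested) and 1 rose. The nuclease gene Dna2 fell from 16.1 ± 0.480 to 4.92 ± 0.367 FPKM and the ligase gene Lig1 from 61.6 ± 3.08 to 30.2 ± 0.534 FPKM. Chtf8, part of an alternative clamp loader, was the 1 that rose, from 71.7 ± 1.25 to 89.2 ± 6.41 FPKM. Of 12 genes of replication-coupled chromatin 11 fell (91.7%, against 34.5% of all genes tested). Uhrf1, which guides maintenance methylation to new DNA, fell from 86.0 ± 2.77 to 30.2 ± 0.733 FPKM, and Dnmt1, the maintenance methyltransferase, from 117 ± 7.42 to 43.0 ± 4.16 FPKM. The histone chaperone gene Asf1a rose, from 14.1 ± 0.385 to 22.3 ± 1.10 FPKM.

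Of 31 other tested nucleotide supply genes 19 fell (61.3%, against 34.5% of all genes tested) and 5 rose. Dctd, the deaminase that makes dUMP from dCMP, kept least, falling from 19.9 ± 0.840 to 3.99 ± 0.219 FPKM (limma adjusted p = 4.9e-09, log2 fold change -2.07 ± 0.07 SE), and the folate enzyme gene Mthfd1 fell from 64.1 ± 2.34 to 16.5 ± 0.498 FPKM. Samhd1, which breaks down deoxynucleotides, rose from 50.3 ± 2.06 to 100.2 ± 6.69 FPKM (log2 fold change 0.98). Chosen after its values were seen, Rrm2b, the p53-regulated small subunit that can replace Rrm2, rose from 4.83 ± 0.368 to 9.34 ± 1.79 FPKM (limma adjusted p = 1.3e-04, log2 fold change 0.81 ± 0.12 SE). It was still far below Rrm2, at 118 ± 3.01 FPKM in nanoparticle libraries.

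Several members share exonic bases with a gene on the opposite strand, and no source used here says whether strand was used in counting. Beside Gins2, the shares above 10% were 29.8% for Orc2 with Nif3l1, 15.1% for Rfc2 with Lat2, 12.7% for Rfc4 with Eif4a2, 10.8% for Orc1 with Gm12743 and 10.7% for Rfc5 with Wsb2. Lat2 moved in the same direction as Rfc2 (91.0 to 45.6 FPKM), whereas Wsb2 rose (27.3 to 70.3 FPKM) while Rfc5 fell. Cdc45 shares 5.96% with Ufd1, which rose too (30.9 to 56.7 FPKM). Orc4 shares 5.98% with Acvr2a, which also rose but was far less abundant (1.49 to 3.37 FPKM). Orc6 shares 6.93% with Vps35, which did not pass (57.9 to 65.5 FPKM, limma adjusted p = 0.061). Mcm7 shares 7.25% with Ap4m1, which rose (4.65 to 6.95 FPKM) while Mcm7 fell. Their part in the results was not tested.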

How the data were processed

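Per the labels, TRIzol RNA went into BGI mRNA libraries. The deposited table gives 1 value column per library with no unit in its header, and the authors' values were taken as FPKM because they were not whole and their sums differed (451056 to 469220). Per the submitters' processing notes, which name STAR and featureCounts, the builds were GRCm38 and mm10. How FPKM was computed is not stated there, and TPM with rows removed could look alike. No step made more than 35.2% of low values whole within 0.05 of a fragment, so reads were not recovered. The column of PBS replicate 1 carries a suffix of unstated meaning. The 509 rows without a gene identifier (0.427% to 0.497% of FPKM) were left out.

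A filter of 1 FPKM or more on the mean of a gene kept 10229, all 44 members among them. These were fitted as log2(FPKM + 1) by limma 3.58.1 in R 4.3.3, with variance moderated along an intensity trend, treatment alone in the model, and two-sided p-values under Benjamini-Hochberg adjustment at 0.05. Folds on this scale understate changes of low genes. The fit was tested on simulated data with few changed genes, unlike the 77.2% called here, so that test cannot vouch for these calls. Coordinates and overlaps are from GENCODE M21 (GRCm38). Tables and plots used Python 3.11.15, pandas 2.3.3 and matplotlib 3.10.9.

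Members, gene lists and tests were chosen with earlier results of these data known. Per-library values are given for Mcm2 to Mcm7, Cdc6, Cdt1, Gmnn, Pcna and the nucleotide genes, the 2 largest changes per role, and each member that rose or did not pass. From each further list the 2 largest called changes in each direction are named, except for a gene that is not reported here. Ctps and Adss were not matched by symbol. Deviations of same-numbered libraries correlated at 0.130, 0.115 and 0.354, all above 0.1, so a replicate block was tried as an alternative. These values do not establish pairing, since PBS replicate 2 with nanoparticle replicate 1 correlated at 0.134, and the main fit holds no block. The remaining alternatives were other pseudocounts, filters, scalings, no trend and leaving out each library.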

Additional observations from a re-analysis of the deposited data

How the results depend on the processing

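None of the 34 members called lost its call or changed direction in any of the 15 alternatives, and the 5 counts of calls stayed within 1.5 times. The number of members lower was 29 to 33 and of members higher 5 to 6. Leaving out 1 library gave 29 to 31 lower and 5 to 6 higher. The replicate block gave 30 lower and 6 higher, with 8351 genes called against 7896, and changed no member's call other than those of Orc3 and Prim1. Gains of a call occurred 12 times over 5 members, as given beside those genes, also for Orc3 under median-ratio (adjusted p = 0.012) and upper quartile scaling (adjusted p = 7.2e-03). Only values near 0 that had not passed changed sign. Cdc6 turned to -3.4e-05 with a pseudocount of 10, -0.074 with median-ratio scaling and -0.099 with upper quartile scaling. Leaving out 1 library gave Cdc6 -0.065 to 0.082, below 0 without PBS replicate 1 (-0.018), PBS replicate 2 (-0.063) or nanoparticle replicate 1 (-0.065). Gins4 turned to -0.023 with upper quartile scaling, and Tyms to -0.0078 with median-ratio and -0.034 with upper quartile scaling. The causes were not tested. Upper quartile scaling moved the median of all genes tested from 0.08 to -0.02 and that of the members from -0.56 to -0.66. Depth is unknown, so a small difference that did not pass may lie under what these libraries can show.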

Other observations

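Genes that mark proliferating cells more broadly were mixed as well, with 60% lower beside 65.9% of the 44 members. Of 10 listed, 6 fell, 2 rose and 2 did not pass, where 34.5% of all genes tested were lower, 42.7% higher and 77.2% called in either direction. Ccne1 and Ccne2, the cyclins E of S phase entry, fell from 26.6 ± 0.245 to 13.6 ± 0.291 FPKM and from 18.0 ± 1.74 to 11.4 ± 1.05 FPKM (SD, n = 3), and Ccna2, cyclin A2, from 95.5 ± 2.15 to 54.4 ± 2.51 FPKM. Ccnb1, cyclin B1 of mitotic entry, fell from 103.8 ± 2.12 to 78.7 ± 3.73 FPKM, and Top2a, the topoisomerase that doxorubicin poisons, from 89.9 ± 6.38 to 70.9 ± 9.49 FPKM. Mki67, the Ki-67 proliferation marker, was at 41.2, 37.2 and 44.9 FPKM with PBS against 27.5, 29.9 and 38.8 FPKM with the particles, so the groups overlapped although limma called it lower (adjusted p = 0.019). Cdk1 and Plk1, kinases of mitosis, did not pass (log2 fold change 0.02 and -0.06). Cdk2, the partner of cyclins E and A, rose from 40.0 ± 2.39 to 49.0 ± 1.59 FPKM, and the mitotic kinase gene Aurka also rose (log2 fold change 0.83).

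Across the 44 members, log2 fold change was lower for genes more abundant in PBS (Spearman's rho -0.41, Pearson's r -0.35 with log2 FPKM) and bore no clear relation to the length of the gene on the chromosome (rho -0.01, r -0.02 with log2 length). The 44 genes share the same 6 libraries, and the PBS level enters the fold change, so these are descriptions.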
